A study of Mus musculus with 72 samples.

Results

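The expression of 10 genes of the Notch pathway was examined in the heart and brain of mice lacking Gnb5, a G-protein beta subunit that works with regulators of G-protein signalling. They were the 4 receptors Notch1, Notch2, Notch3 and Notch4, the ligand Jag1, and 5 HES and HEY transcription factor genes, Hes1, Hes5, Hey1, Hey2 and Heyl, and they were taken by name from the 53715 gene identifiers of the count files. The 72 libraries came from 18 male mice aged 18 weeks, 6 Gnb5+/+, 6 Gnb5+/- and 6 Gnb5-/-, in 12 tissue and genotype groups of 6. Atria and ventricles were taken from all 3 genotypes, and cerebral cortex, hippocampus and cerebellum from Gnb5+/+ and Gnb5-/- mice only, with the tissues of a group coming from the same mice. Mutant mice carried a germline deletion of Gnb5 exon 3 on the C57BL/6J background, so that every tissue carried the deletion throughout life. The line was recovered from frozen sperm. The atrial samples held both atria with the sinoatrial and atrioventricular node cells, and the hippocampi of both hemispheres were taken. Every sample was a bulk tissue, in which fewer cells of a type and less RNA per cell cannot be told apart.

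Notch receptors are single-pass membrane proteins that are cut when a Delta or Jagged ligand on a neighbouring cell pulls on them. The freed intracellular part enters the nucleus, joins the DNA-binding protein RBPJ and turns on genes such as those of the HES and HEY families, which encode basic helix-loop-helix repressors. Notch1 and Notch4 are best known in endothelium, Notch3 in arterial smooth muscle and pericytes, Hey2 in ventricular muscle and vessels, and Hes5 in neural progenitors and astrocytes. The members sit on chromosomes 2 (Notch1 and Jag1), 3 (Notch2 and Hey1), 4 (Hes5 and Heyl), 10 (Hey2), 16 (Hes1) and 17 (Notch3 and Notch4) of GRCm38. None was on chromosome 9 with Gnb5.

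RBPJ reads a short core whose letters are TGGGAA, and the regions just upstream of Hes5 and Hey2 are shown because these promoters held it. Promoter sequences of RefSeq (GRCm38.p6) were found for 7 of the 10 members, and those of Hes1, Hey1 and Heyl were not used here. The core was searched on both strands in the 250 bases before each start site. It was found in 2 of the 7 members, Hes5 and Hey2, and in 21.6% of all 32851 windows of the same length. The longer form GTGGGAA, which contains the core, was found in the same 2 genes and in 5.42% of windows, and Hes5 alone among the 7 held 2 copies of it, as did 0.161% of all windows. In both sequences, written 5′ to 3′ on the strand of the gene, the core or its reverse complement is in capitals. The window of Hey2 is cut to 232 bases where an annotated transcript starts further upstream. A match is a run of letters and was not tested for binding here.
Hes5, chr4:154960673-154960922, plus strand: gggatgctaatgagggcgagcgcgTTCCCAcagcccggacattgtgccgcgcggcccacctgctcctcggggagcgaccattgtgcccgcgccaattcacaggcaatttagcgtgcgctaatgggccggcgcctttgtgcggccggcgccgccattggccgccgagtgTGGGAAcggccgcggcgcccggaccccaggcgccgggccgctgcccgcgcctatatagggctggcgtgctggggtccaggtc
Hey2, chr10:30842802-30843033, minus strand: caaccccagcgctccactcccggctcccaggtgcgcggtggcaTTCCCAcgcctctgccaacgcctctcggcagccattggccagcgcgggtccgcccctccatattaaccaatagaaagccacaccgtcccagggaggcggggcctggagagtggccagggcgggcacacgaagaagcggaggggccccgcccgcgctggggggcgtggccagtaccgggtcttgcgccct

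Levels are given as TMM-RPKM, the counts scaled by edgeR's TMM factors and divided by depth and by the length of a gene's annotated exons in kilobases, so that genes can be compared, and ± is the SD over 6 mice. Libraries held 29204390 to 48807435 reads on genes, with a median of 38864900. Gnb5 itself followed the labels in all 5 tissues, without overlap between genotypes. Markers of atrial and ventricular muscle, cerebellum and cerebral cortex were highest in the labelled tissue in every library, and those of hippocampus exceeded all other tissues in 7 of 12 hippocampal libraries. In 4 libraries a smaller share of reads lay outside genes, and genes with long exons were low against genes with short exons. They were the cerebral cortex of Gnb5-/- mice 14 and 3 (6.86% and 8.32% outside genes, against 13.1% to 15.6% in the other 10), the cerebellum of Gnb5-/- mouse 12 (8.02% against 14.02% to 16.97%) and the ventricles of Gnb5+/- mouse 4 (2.85% against 4.41% to 5.71%). No Gnb5+/+ library was among them.

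**Figure D1:**
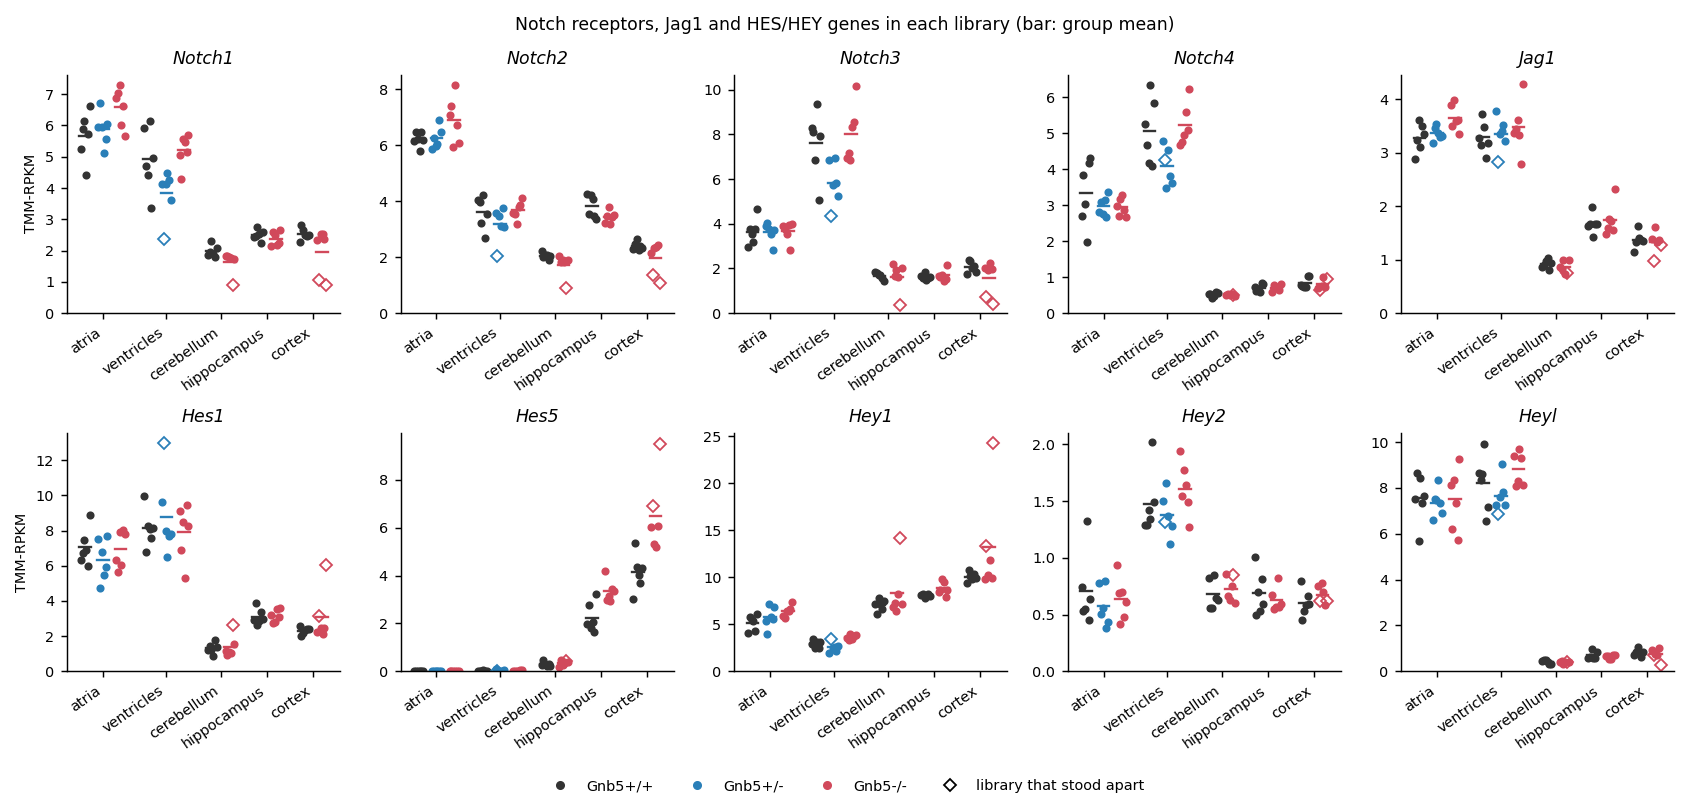
Level of each gene (TMM-RPKM, linear axis from 0) in the 72 libraries by tissue, with points for single mice, bars for group means and open diamonds for the 4 libraries that stood apart. Heyl, Notch4, Hes1 and Jag1 are high in the heart tissues, and Hes5 rises from cerebellum to hippocampus to cortex.

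In Gnb5+/+ mice all 10 genes differed between heart and brain, 8 being higher in the heart and 2 lower. The difference compares the mean of atria and ventricles with the mean of the 3 brain regions, by edgeR's quasi-likelihood test with Benjamini-Hochberg adjustment over 19477 genes, of which 90.9% were called at an adjusted p below 0.05, with 40.7% of all genes higher and 50.2% lower in the heart. The count of members called in either direction is therefore close to that of genes at large. By direction, 8 of the 10 members were higher in the heart, against 40.7% of all genes. The members had a median log2 difference of 1.23 against -0.22 for all genes. The values of the 12 heart and 18 brain libraries did not overlap for 7 members, 6 higher in the heart (Notch1, Notch3, Notch4, Jag1, Hes1 and Heyl) and 1 lower (Hes5), against 47.3% of genes.

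Among the receptors Notch4, which is mostly made by endothelial cells, differed most, by 2.57 (SE 0.10, adjusted p = 1.00e-21) on the log2 scale. Its level in Gnb5+/+ ventricles was 5.06 ± 0.920, with a lowest, median and highest value of 4.08, 4.96 and 6.34. In atria it was 3.34 ± 0.917 (1.99, 3.44 and 4.31), and in cerebral cortex, hippocampus and cerebellum 0.839 ± 0.148, 0.706 ± 0.109 and 0.518 ± 0.0541. The lowest heart library was thus above the highest brain library. The order ran from ventricles to atria, cerebral cortex, hippocampus and cerebellum, and each step was called except that between hippocampus and cerebral cortex (log2 difference -0.23, SE 0.16), with atria against ventricles at -0.54 (SE 0.15, adjusted p = 0.00292) but not called without scaling factors (-0.15, adjusted p = 0.418). Relative to the median gene it was -0.62 with TMM factors and -0.61 without them. These values lie near each other because scaling moves all genes of a library alike. Summed levels of 8 endothelial markers, in TMM-CPM (not per length), ranged from 978 to 1478 in the Gnb5+/+ heart and from 87.5 to 153 in the brain, and their part in the level of Notch4 was not tested.

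Notch3, the receptor of vascular smooth muscle, was the most unequal receptor between the heart chambers. Its level was 7.59 ± 1.48 in ventricles (5.06, 8.01 and 9.34, lowest, median and highest) and 3.64 ± 0.588 in atria (2.96, 3.65 and 4.65), without overlap, and every one of the 6 mice had more in its ventricles. The log2 difference of atria against ventricles was -1.01 (SE 0.11, adjusted p = 6.16e-09). Over the 3 brain regions the group means lay between 1.63 and 2.08, with a log2 difference of -0.33 (SE 0.11, adjusted p = 0.0232) for hippocampus against cerebral cortex and cerebellum not called against either by edgeR with TMM factors. Markers of pericytes and smooth muscle (8 genes) had summed TMM-CPM of 1819 to 2083 in Gnb5+/+ ventricles, 607 to 872 in atria and 115 to 191 in the brain. Notch3 had the same order of ventricles, atria and brain. Among the brain regions only the order of the group means differed. Mean marker sums were 157, 155 and 128 in cerebral cortex, hippocampus and cerebellum. The Notch3 mean was lowest in hippocampus, which was not called different from cerebellum. The part of these markers was not tested.

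Notch2, a widely made receptor, showed the opposite chamber pattern. It was 6.22 ± 0.252 in atria (5.80, 6.21 and 6.49) and 3.61 ± 0.595 in ventricles (2.67, 3.75 and 4.23), a log2 difference of 0.83 (SE 0.08, adjusted p = 6.47e-10) without overlap. The highest brain level, 3.83 ± 0.403 in hippocampus (3.38, 3.81 and 4.26), was not called different from that of the ventricles (log2 -0.13, SE 0.08 for ventricles against hippocampus). Hippocampus exceeded cerebral cortex (2.40 ± 0.139) by a log2 difference of 0.69 (SE 0.08, adjusted p = 5.77e-08), and cerebellum was lowest at 2.05 ± 0.104. Among the receptors it alone was highest, within the brain, in hippocampus in group means. Summed TMM-CPM of 4 endocardial markers were 705 to 1135 in Gnb5+/+ atria and 212 to 266 in ventricles, and those of 5 fibroblast markers 1623 to 2305 and 1069 to 1287. Their part in the atrial excess of Notch2, and in that of Hey1 described below, was not tested.

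Notch1, the receptor best known in endothelium and in cell fate choices, was 5.68 ± 0.760 in atria (4.43, 5.81 and 6.62), 4.91 ± 1.02 in ventricles (3.36, 4.83 and 6.13) and 1.97 ± 0.183, 2.51 ± 0.177 and 2.54 ± 0.186 in cerebellum, hippocampus and cerebral cortex. Heart and brain values did not overlap. The excess of atria over ventricles on the log2 scale, 0.26 (SE 0.10, adjusted p = 0.0372), held in 4 of 6 mice, gave an exact permutation p of 0.281 within mice (two-sided, over 64 sign patterns, which allow none below 0.03125), and was not called with RLE scaling factors (0.20, adjusted p = 0.103). Hippocampus and cerebral cortex were not distinguished (95% interval of the log2 difference -0.21 to 0.21). Notch1 overlaps 2 annotated genes on the opposite strand in its exons, and Notch2, Notch3 and Hes5 overlap 1 each, so a share of their reads could be counted elsewhere or come from these neighbours.

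Jag1, a ligand that is held in the membrane of the sending cell, did not differ beyond its error between the heart tissues with TMM factors. It measured 3.28 ± 0.263 in atria (2.89, 3.29 and 3.60) and 3.28 ± 0.288 in ventricles (2.90, 3.23 and 3.73), with a 95% interval of the log2 difference of -0.12 to 0.22. Without scaling factors the difference was 0.44 (adjusted p = 0.000179), next to a median gene that had itself moved by 0.38. In the brain it fell in the order hippocampus, cerebral cortex and cerebellum (1.67 ± 0.183, 1.37 ± 0.156 and 0.918 ± 0.0820), each step being called. Heart exceeded brain by a log2 difference of 1.32 (SE 0.05, adjusted p = 8.26e-21), with no overlap.

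Heyl, a HEY family repressor made in vascular smooth muscle and endothelium, had the largest excess in heart of the 10 genes. It was 7.55 ± 1.05 in atria (5.69, 7.59 and 8.64) and 8.21 ± 1.19 in ventricles (6.55, 8.48 and 9.93), against 0.813 ± 0.153, 0.691 ± 0.160 and 0.417 ± 0.0863 in cerebral cortex, hippocampus and cerebellum. The log2 difference of heart against brain was 3.63 (SE 0.09, adjusted p = 1.07e-26), and the lowest heart library exceeded the highest brain library. The heart tissues were not distinguished, with a 95% interval of -0.35 to 0.20 on the log2 scale. Cerebellum was called below both other brain regions.

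Hes1, the broadly used HES target of Notch, was 8.14 ± 1.05 in ventricles (6.79, 8.10 and 9.97) and 7.03 ± 1.03 in atria (5.97, 6.81 and 8.87), not called different (log2 -0.16, SE 0.12). Brain values did not reach these levels, with 3.09 ± 0.445 in hippocampus, 2.31 ± 0.196 in cerebral cortex and 1.31 ± 0.315 in cerebellum. Each step among the brain regions was called, with log2 differences of 0.44 (SE 0.13, adjusted p = 0.00739) for hippocampus against cerebral cortex and -1.18 for cerebellum against hippocampus. The order hippocampus, cerebral cortex, cerebellum was also that of Jag1 and Notch2 in group means. Summed TMM-CPM of 5 choroid plexus markers were 25.6 to 1185 in Gnb5+/+ hippocampus, 12.9 to 221 in cerebral cortex and 9.55 to 14.7 in cerebellum. Their part in the differences of Hes1, Jag1 and Notch2 was not tested.

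Hes5, a repressor of neural progenitors and glia, was a brain gene in these data. In cerebral cortex it was 4.13 ± 0.776 (3.03, 4.16 and 5.37), in hippocampus 2.24 ± 0.613 (1.62, 2.01 and 3.21) and in cerebellum 0.304 ± 0.0926 (0.218, 0.290 and 0.475). The log2 difference of cerebellum was -3.69 (SE 0.22, adjusted p = 2.24e-14) against cerebral cortex and -2.82 (SE 0.21, adjusted p = 4.84e-12) against hippocampus, without overlap. That of hippocampus against cerebral cortex was -0.87 (SE 0.19, adjusted p = 0.000560), with overlap. The 6 Gnb5+/+ atrial libraries held 0 Hes5 counts and the 6 ventricular ones 1 count in all. Against the floor of 3 counts per atrial library, Hes5 was at least 56.6-fold higher in cerebral cortex, 30.6-fold in hippocampus and 4.16-fold in cerebellum, a limit set by counting error only. Over all 36 heart libraries the highest count was 2. Summed TMM-CPM of 7 astrocyte markers were 4193 to 4773 in cerebral cortex, 3930 to 4501 in hippocampus and 2471 to 2735 in cerebellum, and their part in these differences was not tested.

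Hey1, a repressor acting with and without Notch, was the other member that was higher in brain. It was 10.1 ± 0.477 in cerebral cortex (9.44, 10.02 and 10.8), 8.06 ± 0.177 in hippocampus (7.75, 8.10 and 8.23) and 7.04 ± 0.600 in cerebellum (6.09, 7.16 and 7.77). In the heart it was 5.18 ± 0.827 in atria (4.09, 5.38 and 6.13) and 2.92 ± 0.377 in ventricles (2.47, 3.01 and 3.40). The log2 difference of atria against ventricles was 0.87 (SE 0.09, adjusted p = 1.54e-09) without overlap and that of heart against brain -1.13 (SE 0.06, adjusted p = 4.37e-18), the highest atrial value overlapping the cerebellar range. Cerebellum and hippocampus were not called different with TMM factors (log2 -0.14, SE 0.09) but were with RLE factors (-0.19, adjusted p = 0.0435), and every other pair of tissues was called.

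Hey2, which in the heart is known from compact ventricular muscle, mirrored Hey1 between the chambers. Ventricles measured 1.48 ± 0.278 (1.29, 1.38 and 2.02) and atria 0.705 ± 0.321 (0.447, 0.592 and 1.33), with ventricles higher in all 6 mice and a log2 difference of -1.03 (SE 0.21, adjusted p = 9.75e-05) for atria against ventricles. The ranges overlapped through 1 atrial library, of mouse 16. Atria and the 3 brain regions (0.677, 0.690 and 0.604) were not distinguished from each other in any pair. Its log2 difference of heart against brain, 0.58 (SE 0.13, adjusted p = 0.000124), came with the ventricles alone called against the brain regions, and without scaling factors it turned to -0.28 (adjusted p = 0.0419).

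**Figure D2:**
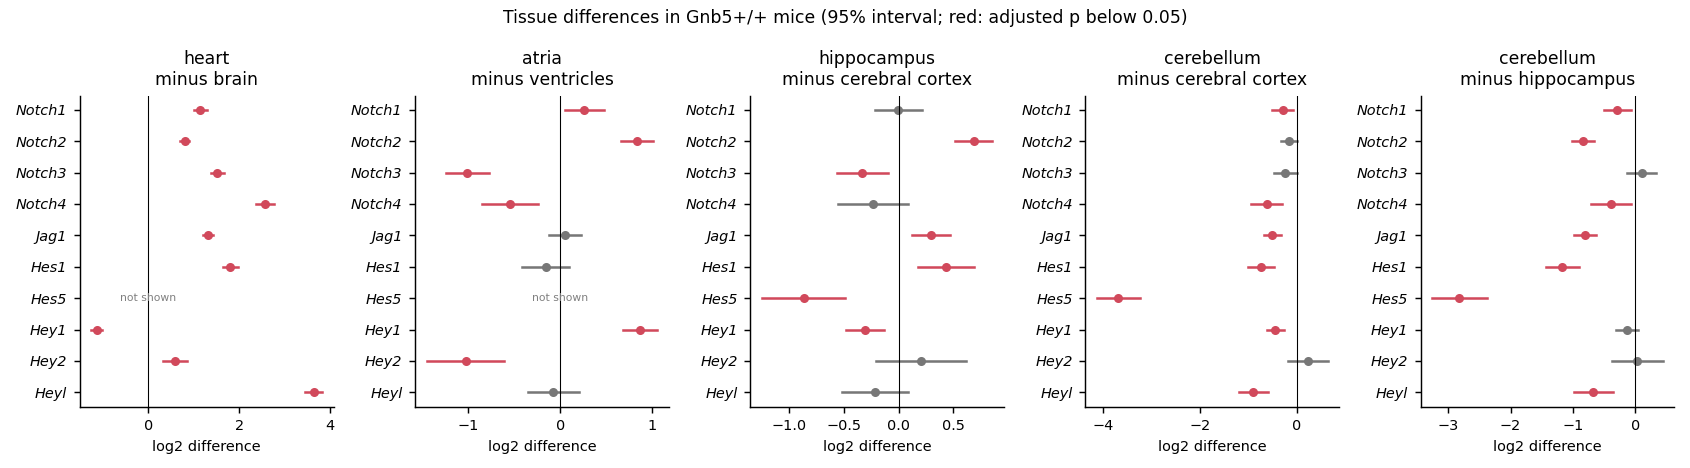
Log2 differences between tissues of Gnb5+/+ mice (6 per tissue) with 95% intervals, red where the adjusted p was below 0.05. Hes5 is not shown in the panels of heart tissues, where it had at most 1 count per library. Notch2 and Hey1 lie to the right of 0 for atria minus ventricles, and Notch3, Notch4 and Hey2 to the left.

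Counted by comparison, 6 of 10 members were called between atria and ventricles, where 51.6% of genes were (29.8% higher and 21.8% lower in atria), 3 higher in atria (Notch1, Notch2 and Hey1) and 3 lower (Notch3, Notch4 and Hey2). Between hippocampus and cerebral cortex 6 were called (33.5% of genes), with Notch2, Jag1 and Hes1 higher and Notch3, Hes5 and Hey1 lower in hippocampus. Cerebellum was below cerebral cortex in 7 members and above it in 0, where 69.1% of genes were called, 33.8% higher and 35.3% lower. Against hippocampus it was below in 7 and above in 0, where 68.3% were called, 33.5% higher and 34.8% lower. The 7 members low in cerebellum were Notch1, Notch4, Jag1, Hes1, Hes5, Heyl and, in place of Hey1 against cerebral cortex, Notch2 against hippocampus. Notch2 and Notch3 were also called below cerebral cortex under RLE factors. Groups did not overlap in 3, 3, 7 and 6 members in these comparisons, against 23.9%, 26.4%, 57.5% and 56.9% of genes. With the 30 Gnb5-/- libraries in place of the Gnb5+/+ ones, the called members kept their direction except for Notch3 in hippocampus against cerebral cortex, which became 0.12 and was not called. Notch1 between atria and ventricles, Notch1 between cerebellum and cerebral cortex and Hes1 between hippocampus and cerebral cortex were also no longer called, at log2 differences of 0.34, -0.26 and 0.04, and 3 of the libraries that stood apart enter there.

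The differences between heart and brain depended on the scaling. Without scaling factors the difference of the median gene between heart and brain moved by -0.85, from -0.22 to -1.08, and that between atria and ventricles by 0.38. Relative to the median gene, Hey2 was higher in the heart by a log2 difference of 0.81 with TMM factors and 0.80 without them. For Notch2 the values were 1.02 and 1.02. Scaling moves all genes of a library alike, so these pairs lie near each other by arithmetic and are no check of the direction. Not set against the median gene, the log2 difference of Notch2 without scaling factors was -0.06, below 0 and not called, while the other 6 members above 0 stayed above it and were called.

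The other genes of the pathway were followed in a list of 48, of which 47 were tested between Gnb5+/+ tissues. Between heart and brain 19 were higher in the heart, 23 lower and 5 not called, where 40.7% of all genes were higher and 50.2% lower, with a median log2 difference of -0.10 against -0.22 for all genes. By role, 7 of 10 genes of the proteases that cut receptor or ligand were higher in the heart and 2 lower, led by Furin (1.77, SE 0.06, adjusted p = 5.34e-23), which trims the receptor in the Golgi. Of 12 genes of trafficking and turnover 10 were lower in the heart and 1 higher, and of the 7 of the nuclear complex 3 were higher and 3 lower. Of 6 ligand genes 2 were higher in the heart, 3 lower and 1 not called. Dll4, the Delta ligand of endothelium, had a log2 difference of 2.53 (SE 0.10, adjusted p = 8.04e-21) and measured 6.30 ± 1.22 in ventricles, 3.74 ± 0.854 in atria and 0.907 ± 0.197, 0.842 ± 0.211 and 0.722 ± 0.0953 in cerebral cortex, hippocampus and cerebellum, the order of Notch4 in group means. Myc, a growth regulator and Notch target, completed the 3 largest rises (1.62, SE 0.11, adjusted p = 1.02e-14). The 3 largest falls were those of Hes3, Dll3 and Dlk2, which had few or no counts in the heart, Dlk2 measuring 0.0448 ± 0.0481 in atria and 12.6 ± 0.863 in cerebral cortex and Dll3 having 0 counts in atria and 0.300 ± 0.0396 in cerebral cortex.

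Hes3, a HES gene of the cerebellum in this list, had a level of 16.02 ± 0.909 in Gnb5+/+ cerebellum, 0.131 ± 0.0814 in cerebral cortex and 0.0115 ± 0.0149 in hippocampus, and at most 1 count in any Gnb5+/+ heart library. Hes5, in contrast, was lowest in cerebellum among the brain regions. Of the 7 genes of the nuclear complex 6 were higher and 1 lower in cerebellum than in cerebral cortex, including the coactivator genes Maml2 (1.50, SE 0.08, adjusted p = 4.48e-17) and Maml3 (0.87, SE 0.14, adjusted p = 3.38e-06). Of the 6 ligand genes 5 were lower and 0 higher in cerebellum, against either region. The largest falls were those of the ubiquitin ligase gene Neurl1b, of Dlk1 and of Dlk2. Neurl1b measured 0.0735 ± 0.0153 in cerebellum, 7.54 ± 0.536 in hippocampus and 8.04 ± 0.501 in cerebral cortex, Dlk1 0.0356 ± 0.0575, 1.88 ± 0.464 and 1.59 ± 0.440, and Dlk2 0.141 ± 0.0524, 6.07 ± 0.717 and 12.6 ± 0.863. Against hippocampus Maml3 (1.42, SE 0.15) and Numb (0.95, SE 0.06), which encodes a Notch inhibitor, had the largest rises after Hes3. Over the list, 19 genes were higher and 18 lower in cerebellum than in cerebral cortex, and 19 and 19 against hippocampus. Of all genes 33.8% were higher and 35.3% lower against cerebral cortex, and 33.5% and 34.8% against hippocampus. Between hippocampus and cerebral cortex 10 were higher and 10 lower, where 16.8% and 16.7% of all genes were, with Maml2 (1.23, SE 0.08), Aph1b (0.47, SE 0.09) and Aph1c (0.43, SE 0.11) at one end and Hes3, Dlk2 (-1.04, SE 0.16) and Numb (-0.92, SE 0.06) at the other.

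Between atria and ventricles 15 genes of the list were higher and 8 lower in atria, where 29.8% and 21.8% of all genes were, with a median log2 difference of 0.15 against 0.07 for all genes. The largest rises were those of Numbl (0.94, SE 0.11), Aph1c (0.80, SE 0.14) and Maml2 (0.79, SE 0.08), and the largest falls those of Neurl1b (-0.97, SE 0.11), the cyclin gene Ccnd1 (-0.95, SE 0.16) and the glycosyltransferase gene Mfng (-0.87, SE 0.13). Of the 6 ligand genes 2 were lower in atria and 0 higher, and of the 10 protease genes 6 were higher and 1 lower.

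Loss of Gnb5 was compared within each tissue, by edgeR with genotype alone. No member was called in any of the 9 comparisons, in which 10 members were tested in the brain and 9 in the heart, where Hes5 was too low to be tested. Between Gnb5-/- and Gnb5+/+ mice 0.253% of genes were called in atria, 0.188% in ventricles, 0.0817% in cerebellum, 0.165% in hippocampus and 0.0557% in cerebral cortex, so that 0 called members is near what genes at large gave. At an unadjusted p below 0.05 there were 3, 1, 0, 3 and 1 members in these tissues, against 8.15%, 4.78%, 5.85%, 7.70% and 7.39% of all genes. DESeq2 called 1 member in hippocampus, Hes5, and 0 in the other 4. Groups overlapped for every member in every one of these comparisons, while 0.649%, 0.545%, 1.1%, 0.608% and 0.534% of genes did not overlap. Log2 differences ranged from -0.18 to 0.30 in atria, -0.05 to 0.32 in ventricles, -0.27 to 0.25 in cerebellum, -0.15 to 0.57 in hippocampus and -0.41 to 0.69 in cerebral cortex.

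**Figure D3:**
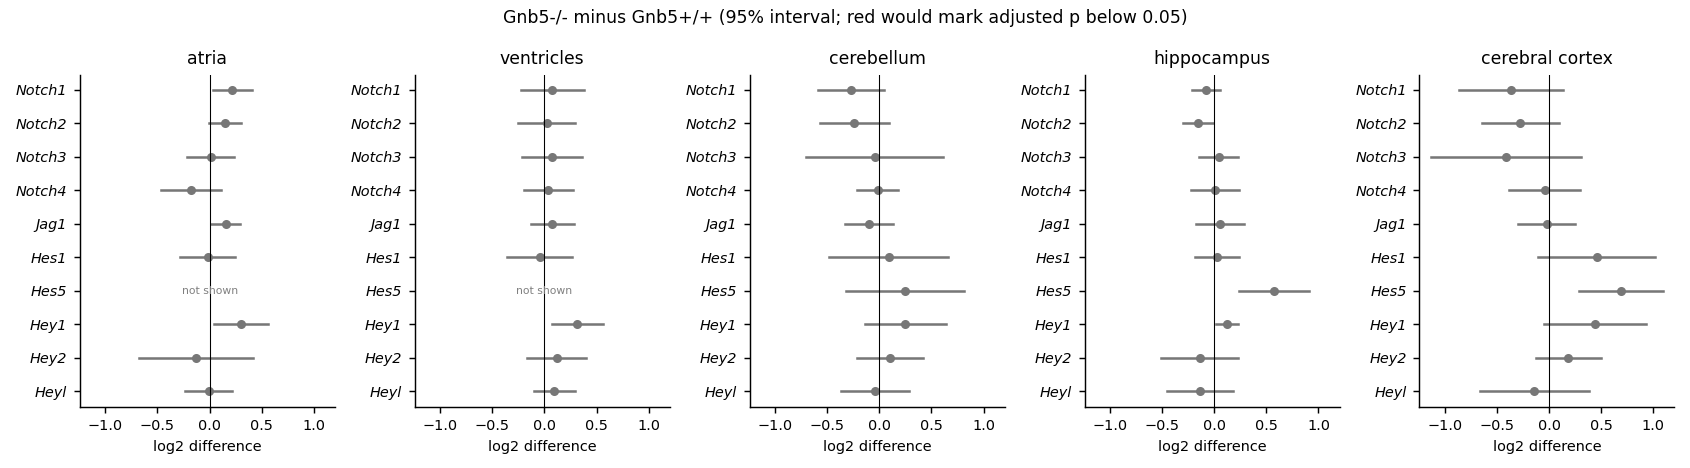
Log2 differences of Gnb5-/- against Gnb5+/+ mice (6 against 6) with 95% intervals in 5 tissues, all grey because no adjusted p was below 0.05. Hes5 is not shown in the heart, where it was not tested. The Hes5 intervals in hippocampus and cerebral cortex lie above 0, and the widest intervals are those of Notch3 in cerebellum and cerebral cortex.

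Hes5 had the largest difference of the members in hippocampus and in cerebral cortex. In hippocampus the Gnb5+/+ mice measured 1.62, 1.81, 1.97, 2.05, 2.75 and 3.21, and the Gnb5-/- mice 2.94, 2.99, 3.14, 3.36, 3.43 and 4.18. The lowest 5 Gnb5+/+ values were below all 6 of Gnb5-/-, and mouse 18 overlapped them. The log2 difference was 0.57 (SE 0.16), with an edgeR p of 0.00239 and an adjusted p of 0.326, and an adjusted p of 0.0498 by DESeq2, which called 0.591% of genes, in a range of 0.0498 to 0.334 over the alternatives. The two-sided exact permutation p was 0.0108 (over 924 splits, which allow none below 0.00216), unadjusted, as are the other permutation values below, with 10 members examined in 9 genotype comparisons. All 6 Gnb5-/- mice were above the Gnb5+/+ mean.

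In cerebral cortex Hes5 measured 3.03, 3.70, 4.02, 4.31, 4.36 and 5.37 in Gnb5+/+ and 5.20, 5.31, 6.01, 6.07, 6.89 and 9.50 in Gnb5-/- mice. Only the highest Gnb5+/+ mouse, 8, reached into the Gnb5-/- range. The log2 difference was 0.69 (SE 0.19), with an adjusted p of 0.474 by edgeR and an exact permutation p of 0.00649. The highest 2 Gnb5-/- values belonged to mice 14 and 3, whose libraries stood apart, and without them the difference was 0.45 (adjusted p = 0.662 by edgeR, exact permutation p = 0.0286 over 210 splits, which allow none below 0.00476), moving by over 1.5 times. In cerebellum Hes5 was 0.304 ± 0.0926 and 0.359 ± 0.113 (log2 difference 0.25, SE 0.26, edgeR adjusted p = 0.664), and without mouse 12 the log2 difference was 0.19. Summed astrocyte markers were 3930 to 4501 and 4036 to 4391 TMM-CPM in Gnb5+/+ and Gnb5-/- hippocampus and 4193 to 4773 and 1953 to 4762 in cerebral cortex. Those ranges overlapped, and their part was not tested.

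**Figure D4:**
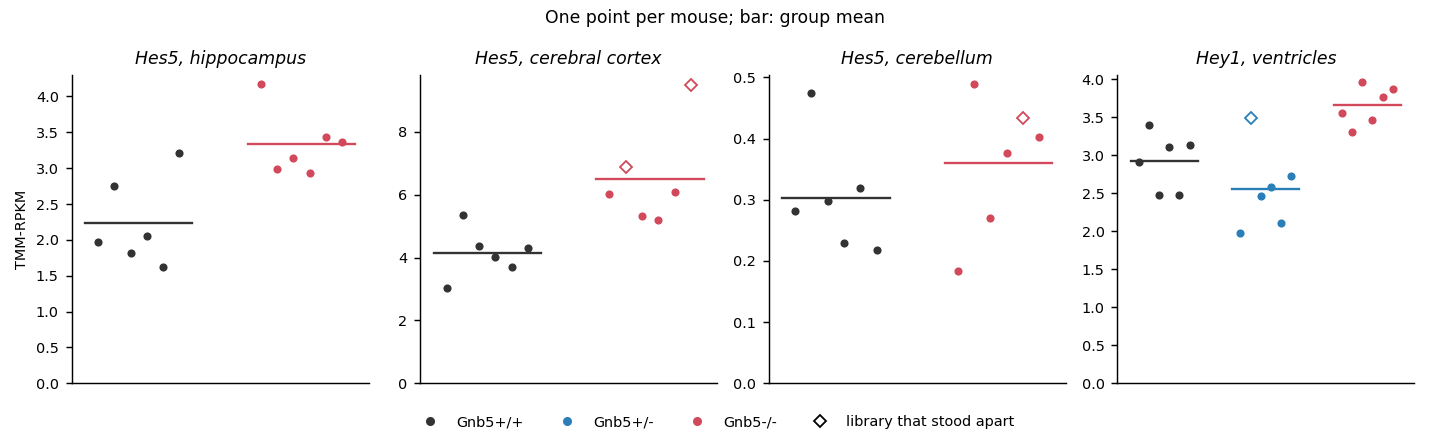
Levels (TMM-RPKM, axes from 0) of Hes5 in 3 brain regions and of Hey1 in ventricles, with a point per mouse, bars for group means and open diamonds for the libraries that stood apart. Hes5 is higher in most Gnb5-/- mice of hippocampus and cerebral cortex, with 1 Gnb5+/+ mouse of each tissue inside the Gnb5-/- range.

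Hey1 was above its Gnb5+/+ mean in all 6 Gnb5-/- mice of atria and of ventricles. In ventricles Gnb5+/+ mice measured 2.47, 2.48, 2.91, 3.11, 3.14 and 3.40, Gnb5+/- mice 1.98, 2.10, 2.46, 2.58, 2.72 and 3.48 and Gnb5-/- mice 3.30, 3.46, 3.56, 3.77, 3.87 and 3.96. Gnb5-/- mice were thus highest, with 1 Gnb5+/+ and 1 Gnb5+/- mouse inside their range. Against Gnb5+/+ the log2 difference was 0.32 (SE 0.12), with an adjusted p of 0.766 by edgeR and an exact permutation p of 0.00433. Against Gnb5+/- it was 0.52 (SE 0.12), with an unadjusted p of 0.000267 and an adjusted p of 0.110, in a range of 0.0106 to 0.174 over the alternatives. This comparison called 0.0874% of genes by edgeR and 0.464% by DESeq2, which gave Hey1 an adjusted p of 0.0106. The overlapping Gnb5+/- value was that of mouse 4, whose library stood apart, and without it the edgeR difference was 0.61 with an adjusted p of 0.0186.

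In atria Hey1 was 5.18 ± 0.827, 5.76 ± 1.14 and 6.38 ± 0.610 in Gnb5+/+, Gnb5+/- and Gnb5-/- mice, with a log2 difference of 0.30 (SE 0.12, adjusted p = 0.511) by edgeR for Gnb5-/- against Gnb5+/+. Hippocampus had 8.06 ± 0.177 and 8.80 ± 0.696, with a log2 difference of 0.12 (SE 0.05, adjusted p = 0.576) by edgeR. In cerebellum and cerebral cortex the log2 differences of Hey1 were 0.25 and 0.44, and without the libraries that stood apart 0.03 and 0.05. Hey1 values were thus positive in all 5 tissues, small in the brain once those libraries were left out, and called in none.

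In ventricles Notch1, Notch3 and Notch4 had their lowest group means in Gnb5+/- mice. Notch3 was 7.59 ± 1.48, 5.82 ± 0.979 and 8.0 ± 1.29 in Gnb5+/+, Gnb5+/- and Gnb5-/- ventricles, Notch4 5.06 ± 0.920, 4.09 ± 0.529 and 5.22 ± 0.592, and Notch1 4.91 ± 1.02, 3.83 ± 0.768 and 5.20 ± 0.509. Against Gnb5+/+ the log2 differences of Gnb5+/- were -0.38 (SE 0.14), -0.31 (SE 0.11) and -0.36 (SE 0.15), with edgeR adjusted p of 0.961 for each. These were the 3 members with an unadjusted p below 0.05, as 4.84% of all genes had, DESeq2 called 0, and 0.0202% of genes were called. Gnb5-/- against Gnb5+/- gave 0.45, 0.35 and 0.43 for the same genes, among 5 members with an unadjusted p below 0.05 (8.79% of all genes), and these comparisons share the Gnb5+/- mice. Without mouse 4, Gnb5+/- against Gnb5+/+ gave -0.31, -0.32 and -0.25. Mean summed markers of pericytes and smooth muscle were 1940, 2038 and 2011 TMM-CPM in Gnb5+/+, Gnb5+/- and Gnb5-/- ventricles. Those of endothelium were 1373, 1338 and 1385, and those of endocardium 234, 208 and 245, both lowest in Gnb5+/- mice. The part of these markers was not tested. In atria the Gnb5+/- group was compared likewise, with 0 members called by edgeR or DESeq2, 0 at an unadjusted p below 0.05 against either genotype (7.22% of all genes against Gnb5+/+ and 4.86% for Gnb5-/- against Gnb5+/-), and 0.0124% (against Gnb5+/+) and 0.0494% (Gnb5-/- against Gnb5+/-) of genes called. All 9 tested members overlapped in each comparison with Gnb5+/- mice, while 0.192% and 0.457% of genes did not in atria, against Gnb5+/+ and Gnb5-/- mice, and 0.148% and 1.02% in ventricles.

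In atria Notch1 and Jag1 had an unadjusted p below 0.05 beside Hey1. Notch1 was 5.68 ± 0.760 in Gnb5+/+ (4.43, 5.81 and 6.62) and 6.59 ± 0.631 in Gnb5-/- mice (5.66, 6.75 and 7.31), and Jag1 3.28 ± 0.263 (2.89, 3.29 and 3.60) and 3.65 ± 0.243 (3.34, 3.60 and 3.98). The log2 differences were 0.22 (SE 0.09, adjusted p = 0.511) and 0.16 (SE 0.07, adjusted p = 0.530) by edgeR. Jag1 was above the Gnb5+/+ mean in 6 of 6 Gnb5-/- mice and Notch1 in 5 of 6, with overlap in both. Summed TMM-CPM of the 4 endocardial markers were 705 to 1135 in Gnb5+/+ and 984 to 1240 in Gnb5-/- atria. Those of the 8 endothelial markers were 978 to 1269 and 1052 to 1200. The endocardial sums also differed in cerebellum, at 68.0 to 87.9 and 105 to 169 without overlap, and overlapped in hippocampus and cerebral cortex. The part of these markers was not tested. In hippocampus Notch2 had a log2 difference of -0.15 (SE 0.07, adjusted p = 0.62) by edgeR, with 3.83 ± 0.403 in Gnb5+/+ and 3.45 ± 0.219 in Gnb5-/- mice. Hey1, given above, was the remaining member of hippocampus with an unadjusted p below 0.05, and all of these failed the correction over all genes.

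In cerebellum and cerebral cortex 3 libraries lay far below the rest for Notch1, Notch2 and Notch3. Notch3 was 0.348 in the cerebellum of Gnb5-/- mouse 12, against 1.46 to 1.82 in Gnb5+/+ mice, and 0.404 and 0.703 in the cerebral cortex of mice 14 and 3, against 1.74 to 2.39. Hey1 was 14.2 in the same cerebellum and 24.3 and 13.3 in the same cortices, against 6.09 to 7.77 and 9.44 to 10.8. Notch1, Notch2 and Notch3 were low and Hey1 high in the same tissue sample. Without these libraries the log2 difference of Notch3 moved from -0.05 to 0.17 in cerebellum and from -0.41 to -0.02 in cerebral cortex, that of Notch1 from -0.27 to -0.15 and from -0.36 to -0.05, and that of Hes1 from 0.09 to -0.20 and from 0.46 to 0.01. Notch1 was below the Gnb5+/+ mean in the cerebellum of all 6 Gnb5-/- mice, with an edgeR adjusted p of 0.583, an exact permutation p of 0.00649 and overlap between the groups. Without mouse 12 all 5 were below it, with an exact permutation p of 0.0303 over 462 splits, also unadjusted. The cerebellum of mouse 12 also held 628 TMM-CPM of summed choroid plexus markers, against 9.55 to 14.7 in Gnb5+/+ cerebellum, and the part of these cells was not tested.

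The 4 libraries that stood apart were set beside the members' exon lengths. In each library the median log2 deviation of the genes with the shortest exons was subtracted from that of the genes with the longest exons (lowest and highest quartile). The difference was -1.64 to -0.83 in the 4 libraries and -0.22 to 0.17 in the other 68. Notch1, Notch2 and Notch3, with annotated exon lengths of 14232, 10782 and 8089 bases, deviated in the 4 libraries by -1.47 to -1.03, -1.18 to -0.79 and -2.36 to -0.88 on the log2 scale from the Gnb5+/+ median of their tissue. Hes1 and Hey1, of 2037 and 3265 bases, deviated by 0.40 to 1.35 and 0.21 to 1.27. Notch1, Notch2 and Notch3 were therefore below and Hes1 and Hey1 above the median in every one of the 4. Hes5, of 1363 bases, deviated by 0.58 to 1.19 in the 3 brain libraries among them. The other target genes differed, with Heyl (5113 bases) at -1.68 to -0.03 and Hey2 (4593 bases) at -0.07 to 0.41. Jag1, of 5827 bases, deviated by -0.48 to -0.10. Notch4, of 8061 bases, did not follow Notch3, with deviations of -0.24 to 0.31. The cause of the pattern was not tested.

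**Figure D5:**
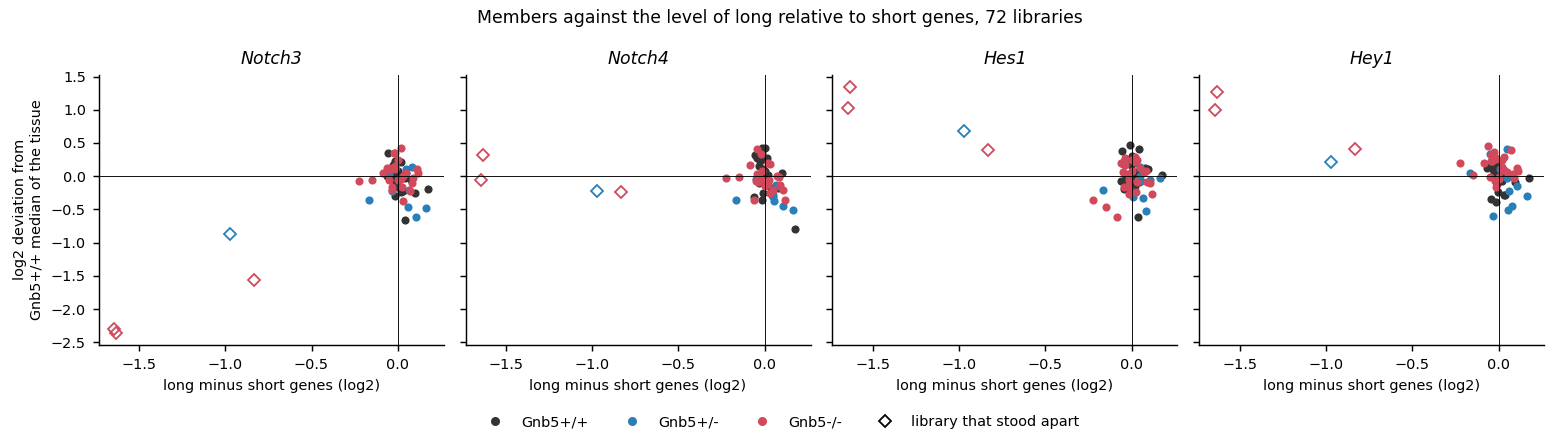
Log2 deviation of 4 members from the Gnb5+/+ median of their tissue against the log2 deviation of long genes minus that of short genes, with a point per library (n = 72) and open diamonds for the 4 libraries that stood apart. Notch3 lies low and Hes1 and Hey1 high in those 4, and Notch4 stays near 0.

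Across the 72 libraries less their group means, Notch1, Notch2 and Notch3 had pairwise Pearson's r of 0.85 to 0.86, and r of -0.67 to -0.56 with Hes1 and Hey1, a description over libraries that share mice and tissues. Over the 68 libraries without the 4 that stood apart, the pairwise r of the receptors were 0.50 to 0.60, and those with Hes1 and Hey1 -0.21 to 0.16. The opposite course of Notch1, Notch2 and Notch3 against Hes1 and Hey1 thus rested on the 4 libraries. The other target genes did not share it to that degree. Over the 72 libraries Heyl had r of 0.41 to 0.49 with these receptors, and Hes5 and Hey2 -0.22 to -0.07. Notch4 had r of 0.13 with Hes1 and 0.17 with Hey1.

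By the same measure over 72 libraries, among 13901 protein-coding genes, the genes most like Notch1 were Pkd1 (r = 0.919) and Lrp1 (r = 0.918) and those most like Notch2 Pkd1 (r = 0.919) and Lrp1 (r = 0.892). For Notch3 they were Hspg2 (r = 0.948) and Tnrc18 (r = 0.937), for Hey1 Chrac1 (r = 0.848) and Ndufa9 (r = 0.842) and for Hes1 Cox7c (r = 0.753) and Fam174a (r = 0.743). Notch4 had Fam234a (r = 0.669) and Pkn3 (r = 0.656), Hey2 St3gal6 (r = 0.627) and Slc12a2 (r = 0.616), Hes5 Pcp4 (r = 0.580) and Rpa1 (r = 0.454) and Jag1 Srcap (r = 0.549) and Pcdhb21 (r = 0.544). Over the 68 libraries the r of Notch1 with Pkd1 was 0.707 and with Lrp1 0.706, which then ranked 20 and 21 in likeness. That of Notch2 was 0.642 with Pkd1 and 0.513 with Lrp1, and that of Notch3 0.733 with Hspg2 and 0.581 with Tnrc18. Hey1 had 0.588 with Chrac1 and 0.523 with Ndufa9, and Hes1 0.372 with Cox7c and 0.316 with Fam174a. Of the genes named, some were still among the 2 most alike over the 68 libraries. They were Pkd1 for Notch2, Hspg2 for Notch3, Fam234a for Notch4, Pcp4 for Hes5 and both genes for Hey2. Heart libraries held at most 2 Hes5 counts each, so the r of Hes5 over 72 or 68 libraries includes many values at the floor.

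Over the 12 group means, which mostly separate heart from brain, likeness was high for every member. The most alike genes were Lgals9 (r = 0.999) and Fes (r = 0.999) for Heyl, Limd1 (r = 0.999) and Usp13 (r = 0.998) for Notch4, Pde1b (r = 0.998) and Csnk2a2 (r = 0.997) for Hes5, Dsg2 (r = 0.997) and Fbn1 (r = 0.996) for Jag1 and Rras2 (r = 0.997) and Lpl (r = 0.996) for Hes1. They were Abl1 (r = 0.988) and Tnfrsf14 (r = 0.984) for Notch1, Pak4 (r = 0.990) and Vit (r = 0.985) for Notch2, Aen (r = 0.990) and 4930578C19Rik (r = 0.990) for Notch3, Dpysl2 (r = 0.982) and Slc52a2 (r = 0.982) for Hey1 and Mrpl19 (r = 0.980) and Dnajc11 (r = 0.979) for Hey2.

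Whether the effect of Gnb5 loss differed between tissues was tested as an interaction over the libraries of Gnb5+/+ and Gnb5-/- mice. Of the 10 members 0 were called by edgeR and 0 by DESeq2 in each of 5 tissue pairs, in which 0.00982% (atria and ventricles), 0.0% (hippocampus and cerebral cortex), 0.0147% (cerebellum and cerebral cortex), 0.0147% (cerebellum and hippocampus) and 0.329% (heart and brain) of 20358 genes were called. At an unadjusted p below 0.05 there were 2, both between heart and brain, where 14.1% of all genes had one. By edgeR the Gnb5-/- effect was higher in the heart than in the brain by a log2 difference of 0.39 (SE 0.14, adjusted p = 0.242) for Notch1 and 0.32 (SE 0.12, adjusted p = 0.259) for Notch2. Without the 3 brain libraries that stood apart these values were 0.24 and 0.19, so that both moved by over 1.5 times. For the Hes5 effect in hippocampus against cerebral cortex, the 95% interval of the difference was -0.66 to 0.51 on the log2 scale, and with 0 or few counts in the heart its effect there could not be estimated.

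Of the 48 other pathway genes, 42 were tested in each heart tissue, 44 in cerebellum, 46 in hippocampus and 47 in cerebral cortex, and 0 were called between Gnb5-/- and Gnb5+/+ mice in any of them by edgeR. At an unadjusted p below 0.05 there were 4 in atria, 4 in ventricles, 1 in cerebellum, 6 in hippocampus and 2 in cerebral cortex, where the shares of all genes were the 8.15%, 4.78%, 5.85%, 7.70% and 7.39% given for the members. The list's median log2 differences were 0.04, 0.01, -0.04, 0.02 and -0.05. Comparisons with Gnb5+/- mice also gave 0 calls, with 1 (Gnb5+/- against Gnb5+/+) and 2 (Gnb5-/- against Gnb5+/-) genes at an unadjusted p below 0.05 in atria and 4 and 5 in ventricles. DESeq2 called 1 gene of the list, Aph1c, in atria against Gnb5+/+ and against Gnb5+/- and in hippocampus, and 0 in the other comparisons. Aph1c is a gamma-secretase subunit gene named here after its values were seen. Of all genes DESeq2 called 110 and 26 of 16181 in these atrial comparisons and 104 of 17588 (0.591%) in hippocampus. By edgeR the log2 difference of Aph1c for Gnb5-/- against Gnb5+/+ was -0.85 (SE 0.18, adjusted p = 0.0546) in atria. The hippocampal difference was -0.32 (SE 0.07, adjusted p = 0.116). Aph1c lies on chromosome 9, as does Gnb5, and so do Maml2, Aph1b and Adam10 of the list.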

How the data were processed

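RNA of 72 tissue samples from 18 mice was sequenced as stranded, ribosomal-RNA-depleted, single-end libraries. The authors trimmed reads with Cutadapt 1.8, removed ribosomal and low-complexity reads, aligned to GRCm38 with STAR 2.5.3a and deposited 1 file per sample of raw read counts per Ensembl gene from HTSeq 0.9.1. The strand setting of the counting was not given in the sources used here, so reads of overlapping or antisense genes can be misassigned. Rows for reads outside genes or ambiguous between genes (2.85% to 16.97% and 0.830% to 1.50% of uniquely aligned reads) were left out of library sizes and tests. Gene names, exon lengths and positions came from GENCODE M21 (53620 of 53715 identifiers matched).

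From the deposited counts, differences were tested in edgeR 4.0.16 (R 4.3.3, limma 3.58.1) by the quasi-likelihood F-test after TMM scaling and filterByExpr with a count minimum of 10, with Benjamini-Hochberg adjustment over all genes and a threshold of 0.05. Genotypes were compared within a tissue, tissues in 1 fit of the 30 Gnb5+/+ libraries, and genotype effects between tissues as an interaction over the Gnb5+/+ and Gnb5-/- libraries. Single members were also tested by two-sided exact permutation of log2 TMM-CPM with a prior count of 2. The scripts were tested on simulated data. Gene reads per library ran from 29204390 to 48807435, and floors of 3 counts cover counting error only. The alternatives were DESeq2 1.42.0, RLE factors, no filter, robust empirical Bayes, 2 genotypes only, a replicate block, Gnb5-/- libraries for the tissue comparisons and leaving out libraries. Library totals without factors, and leaving out the ventricles of mouse 4 or several libraries at once (also for permutation tests and correlations), were chosen after seeing the data. Tissues of a mouse shared its number in the labels, and their deviations from the group means correlated (r of 0.11 to 0.68, 6 of 6 pairs above 0.1 in each of 10 tissue pairs). Tissues were thus paired by mouse. The main tissue and interaction fits held no term for the mouse, which entered as a block among the alternatives and in the permutation within mice.

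All 10 members were counted in every comparison they entered, but not every member's value was printed for each comparison. Of the 48 other pathway genes the 3 largest rises and falls per tissue comparison were named, and any called between genotypes. Aph1c, named for its DESeq2 call, and Adam10, for its chromosome, were named after their values were seen. The 2 most alike genes per member were taken from protein-coding genes with a mean TMM-CPM of at least 1. Those of Heyl over the 72 libraries are not reported here. The members and lists were chosen with earlier results of these data known.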

Additional observations from a re-analysis of the deposited data

Results flagged for a closer look

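In 12 of the 120 groups of 6 mice (10 genes in 12 groups) the highest or lowest value lay far from the others. This was judged by Dixon's test at the 95% level, where chance alone gives about 1 in 20. Hes5 was 0 in every library of Gnb5+/+ and Gnb5-/- atria, so these groups could not be flagged. All values are TMM-RPKM, and their causes were not tested. The cerebellum of Gnb5-/- mouse 12, one of the 4 libraries that stood apart, accounted for 5 of the flagged groups. It held 0.896 of Notch1, 0.904 of Notch2 and 0.348 of Notch3, where the nearest other Gnb5-/- cerebellum had 1.72, 1.84 and 1.64. It held 2.63 of Hes1 and 14.2 of Hey1, where the nearest had 1.53 and 8.23. The cerebral cortex of Gnb5-/- mouse 14, which also stood apart, held 6.01 of Hes1 and 24.3 of Hey1, against 3.12 and 13.3 in the next highest library.

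The hippocampus of Gnb5-/- mouse 14 held 2.32 of Jag1, where the nearest other had 1.75. Hey2 was 1.33 in the atria of Gnb5+/+ mouse 16, against a next value of 0.740, and 2.02 in the ventricles of Gnb5+/+ mouse 17, against 1.49. Hes5 was 0.0177 in the atria of Gnb5+/- mouse 13 and 0.0350 in the ventricles of Gnb5+/+ mouse 16. Each came from a single count where the other 5 libraries of the group had 0, which gives this flag by construction.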

How the results depend on the processing

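Counts of called members stayed within 1.5 times under the alternatives run, except that 0 became 1 between Gnb5-/- and Gnb5+/- ventricles by DESeq2 and without Gnb5+/- mouse 4 (both Hey1; 0 to 1 over libraries left out), and between Gnb5-/- and Gnb5+/+ hippocampus by DESeq2 (Hes5). Of the log2 differences of single members 622 kept their direction and side of the threshold, 11 passed it, 8 fell below it and 20 changed sign, and the causes were not tested. Those that changed sign between genotypes were, as log2 differences, Heyl in atria without the filter (0.0015), Notch3 (0.17) and Hes1 (-0.20) in cerebellum without mouse 12, and in cerebral cortex Heyl without mouse 14 (0.0223) and without mice 14 and 3 (0.0709), and Jag1 without the latter (0.0631, and -0.0353 without mouse 14 alone). Between atria and ventricles they were Jag1 by DESeq2 (-0.0054) and RLE (-0.0070), and Hes1 (0.24) and Heyl (0.31) without scaling factors. There the median gene moved by 0.38. Relative to it, with TMM factors and without, Hes1 was -0.23 and -0.22 and Heyl -0.14 and -0.15. These pairs lie near each other by arithmetic. Between heart and brain the members that changed sign were Notch2 (-0.0556) and Hey2 (-0.28) without scaling factors. With Gnb5-/- libraries they were Notch1 (0.28), Notch3 (0.12) and Hey2 (-0.11) in hippocampus against cerebral cortex, and Notch3 in cerebellum against cerebral cortex (0.0719) and hippocampus (-0.0434). The others were Notch1 in hippocampus against cerebral cortex without the filter (0.0212) and Hey2 in cerebellum against hippocampus by DESeq2 (-0.0227) and RLE (-0.0226). Hey2 between heart and brain was called in both directions, with an edgeR adjusted p of 0.0419 without scaling factors. Without the 4 libraries that stood apart, Pearson's r changed sign for Hey1 with Notch1 (0.16), Notch2 (0.0559) and Notch3 (0.16) and for Hes1 with Notch3 (0.0055).

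With the replicate block the genotype comparisons called 0 members in each of 9, and with the mouse as block the tissue comparisons called 6, 6, 7, 7 and 10 and the interactions 0, so the pairing changed no count. Between genotypes the replicate numbers join different mice, whose deviations correlated above 0.1 in at most 1 of 6 pairs. At these depths Hes5 in the heart lay at or under 3 counts per library.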
